A study of Mus musculus with 22 samples.

Results

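Transcripts of 9 B cell genes were followed in the thymus, and beside it in cerebrum and cerebellum, of Tol and wild-type (WT) mice. The genes were chosen by name as genes of the B cell lineage: Pax5, Ebf1, Cd79a, Cd79b, Blk, Ms4a1, Cd22, Cr2 and Fcer2a. All 9 were found among the 34585 entries that each table lists, and all 9 passed edgeR's expression filter in thymus, where 16248 genes were tested. Tol mice are C57BL/6 mice heterozygous for the Tol transgene, a reading frame of scrambled reporter protein fragments that was placed under the CAG promoter, 3′ of Col1a1, by cassette exchange in C57BL/6J embryonic stem cells. The CAG promoter is active in most tissues, so the transgene is not limited to a cell type. WT mice are of the same strain without the transgene, and the labels name no treatment in either genotype. For thymus and cerebrum there are 4 libraries of each genotype, and for cerebellum 2 of Tol and 4 of WT, which makes 22 in all. The labels do not give the age of each mouse.

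B cells arise in the bone marrow, where EBF1 and PAX5 switch on the B lineage program and hold other fates in check. They carry a B cell receptor, an immunoglobulin joined to the signalling chains CD79A and CD79B, and co-receptors that raise or dampen its signal. The thymus makes T cells, but it also houses a small resident population of B cells that present antigen to developing thymocytes and take part in negative selection. In RNA of whole tissue, fewer cells of a type and less RNA per cell cannot be told apart.

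Library totals ranged from 14543698 to 34776973 counts, with a median of 21577753.5, and the deepest thymus libraries were Tol 1 and WT 4. The Tol transcript had 448 to 1023 counts in the Tol thymi and 0 to 1 in the WT thymi, and every library of the other organs matched its labelled genotype in the same way. Levels are given in CPM, the count of a gene relative to its library's total after scaling by TMM factors within an organ. In thymus, the 14 T lineage markers summed to between 14524 and 18988 CPM, and in cerebrum the 4 forebrain markers to between 364 and 454 CPM. The library labelled cerebellum Tol 2 stood apart, since its 5 cerebellum markers summed to 245 CPM against 2375 to 6270 CPM in the other cerebella. Cerebrum WT 3 and Tol 4 stood apart in 4 striatum markers, which summed to 1578 and 832 CPM against 106 to 191 CPM in the other 6 cerebra. Thymus WT 4 had 54 counts of Glycam1, a product of the high endothelial venules of lymph nodes, against 3 to 7 counts in the other 7 thymi.

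The first comparison asked whether the B cell genes differ between Tol and WT thymus. Pax5 and Cd22 were lower in every Tol thymus than in every WT thymus, while the other 7 genes overlapped between the genotypes. None of the 9 passed an adjusted p of 0.05 in edgeR's quasi-likelihood test. In the same test 16 genes did, which is 0.0985% of those tested. At an unadjusted p under 0.05, 3 of the 9 were lower in Tol (Pax5, Cd22 and Ms4a1) and 0 were higher, against 11.1% and 13.3% of all genes tested. The share of genes without overlap and lower in Tol was 5.95% over all genes tested. Of the 9 log2 fold changes 7 were below 0, with a median of -0.27 over the 9 and of 0.01 over all genes tested. Without WT 4, the thymus with the raised Glycam1, 6 were below 0 and the median over the 9 was -0.14.

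Among the transcription factors, Pax5, which commits progenitors to the B lineage, had 7.86, 4.90, 6.63 and 5.32 CPM in Tol thymi 1 to 4 and 9.09, 8.64, 8.04 and 11.1 CPM in WT thymi 1 to 4. The highest Tol library, Tol 1, lay just under the lowest WT library, WT 3, so the groups did not overlap. The means were 6.18 ± 1.34 and 9.22 ± 1.32 CPM (SD, n = 4 each), and the log2 fold change of -0.57 (SE 0.16, 95% interval -0.92 to -0.22) had an adjusted p of 0.0915 in edgeR's test. DESeq2 gave Pax5 an adjusted p of 0.0253, in a fit that called 1266 genes. Without Tol 1, the highest of the Tol thymi, edgeR's log2 fold change was -0.71 (adjusted p = 0.0126), in a fit that called 2978 genes. Without Tol 2, the lowest, it was -0.48 (edgeR adjusted p = 0.246). Pax5 spans 4:44524757-44710487 on the minus strand of GRCm38, and its exons overlap 5730488B01Rik and Gm12462 on the other strand, neither of which is analysed here. The library kit was stranded, but the strand setting of the counting is not given in the sources used here, so reads of these overlapping genes may be shared.

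Ebf1, the factor that acts upstream of Pax5 and beside it, had 6.25, 4.07, 6.14 and 3.93 CPM in Tol thymi 1 to 4 and 5.80, 6.48, 6.68 and 6.44 CPM in WT thymi 1 to 4. Tol 2 and Tol 4 were the low libraries, while Tol 1 and Tol 3 lay within the WT range. The Tol thymi spread more widely (5.10 ± 1.27 CPM) than the WT thymi (6.35 ± 0.38 CPM; SD, n = 4 each). The log2 fold change was -0.31 (95% interval -0.67 to 0.06, edgeR adjusted p = 0.287), which leaves a decrease and a small increase both possible.

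**Figure D1:**
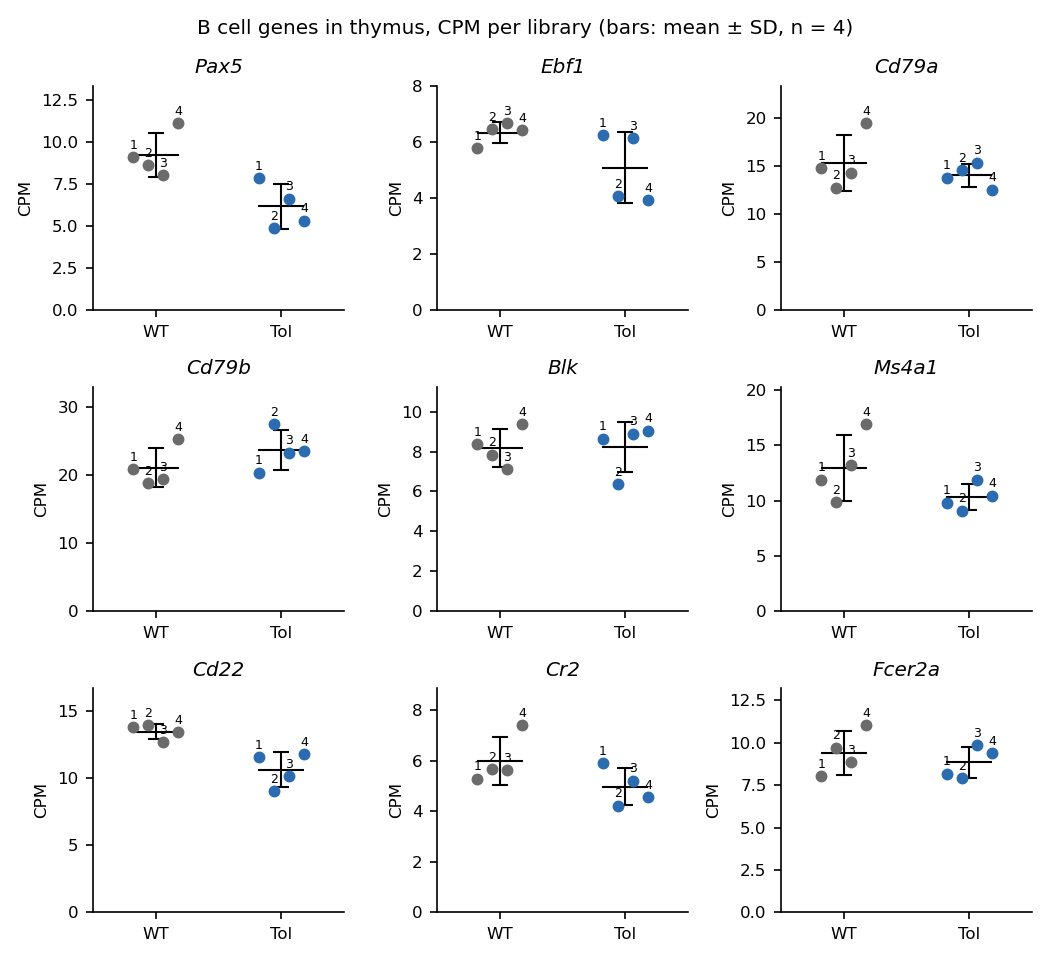
CPM of the 9 B cell genes in each thymus library (y axis, from 0), WT in grey and Tol in blue, with replicate numbers beside the points and bars for mean ± SD (n = 4). Pax5 and Cd22 show no overlap between the genotypes, and WT 4 is the top point in 6 of the 9 panels.

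Among the signalling chains of the B cell receptor, Cd79a had 13.8, 14.5, 15.3 and 12.5 CPM in Tol thymi 1 to 4 and 14.8, 12.7, 14.3 and 19.4 CPM in WT thymi 1 to 4. Cd79b had 20.3, 27.4, 23.3 and 23.5 CPM in the Tol thymi and 20.9, 18.8, 19.4 and 25.3 CPM in the WT thymi. For Cd79a the Tol libraries all lay inside the WT range but for Tol 4, and for Cd79b the highest library was Tol 2. The log2 fold changes were -0.13 (95% interval -0.41 to 0.14) for Cd79a and 0.15 (95% interval -0.09 to 0.40) for Cd79b, with edgeR adjusted p of 0.542 and 0.425. Without WT 4 they were 0.01 and 0.26 (edgeR adjusted p = 0.961 and 0.243). Their proteins form a heterodimer, and the ratio of Cd79b to Cd79a CPM was 1.47, 1.89, 1.52 and 1.88 in Tol thymi 1 to 4 and 1.41, 1.48, 1.35 and 1.30 in WT thymi 1 to 4. Tol 1 lay just under WT 2, and the other 3 Tol thymi lay above all WT thymi. This ratio was chosen after its values were seen and was not tested.

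Blk, a Src family kinase that signals beneath the receptor, had 8.65, 6.38, 8.90 and 9.05 CPM in Tol thymi 1 to 4 and 8.37, 7.84, 7.11 and 9.36 CPM in WT thymi 1 to 4. Tol 2 was the lowest of the 8 and the other 3 Tol thymi lay inside the WT range. The log2 fold change was 0.01 (95% interval -0.28 to 0.30, edgeR adjusted p = 0.972), and its sign turned in 7 of 18 alternatives.

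Of the surface proteins, Cd22, an inhibitory sialic acid receptor that dampens receptor signals, had 11.5, 9.02, 10.2 and 11.8 CPM in Tol thymi 1 to 4 and 13.8, 13.9, 12.7 and 13.4 CPM in WT thymi 1 to 4. The highest Tol library, Tol 4, stood under the lowest WT library, WT 3, and the WT thymi lay close together. Means were 10.6 ± 1.29 CPM in Tol and 13.5 ± 0.55 CPM in WT (SD, n = 4 each). The log2 fold change was -0.34 (SE 0.10, 95% interval -0.55 to -0.12, edgeR adjusted p = 0.0959). DESeq2 gave an adjusted p of 0.0465, and without Tol 1 edgeR gave -0.37 (adjusted p = 0.0340), in fits that called 1266 and 2978 genes. Without Tol 2, the lowest for Cd22, it was -0.26 (edgeR adjusted p = 0.260). Cd22 lies at 7:30865402-30880342 on the minus strand, where its exons overlap Gm29439 on the other strand, which is not analysed here.

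Ms4a1, which encodes CD20, had 9.81, 9.08, 11.9 and 10.4 CPM in Tol thymi 1 to 4 and 11.9, 9.83, 13.2 and 16.9 CPM in WT thymi 1 to 4. WT 4 was far the highest and WT 2 lay among the Tol libraries. The log2 fold change was -0.34 (95% interval -0.67 to -0.00, edgeR adjusted p = 0.202) over all libraries and -0.17 (edgeR adjusted p = 0.491) without WT 4.

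Cr2, which encodes the complement receptor CD21 of mature and follicular B cells, had 5.90, 4.24, 5.22 and 4.57 CPM in Tol thymi 1 to 4 and 5.30, 5.68, 5.63 and 7.41 CPM in WT thymi 1 to 4. Fcer2a, which encodes the low-affinity IgE receptor CD23 of follicular B cells, had 8.18, 7.92, 9.87 and 9.40 CPM in the Tol thymi and 8.03, 9.72, 8.85 and 11.0 CPM in the WT thymi. In both genes WT 4 was the highest library and Tol 2 the lowest, with overlap among the other 6. The log2 fold change of Cr2 was -0.27 (95% interval -0.60 to 0.07, edgeR adjusted p = 0.299). That of Fcer2a was -0.10 (95% interval -0.36 to 0.17, edgeR adjusted p = 0.661). Without WT 4 they were -0.14 and -0.0042 (edgeR adjusted p = 0.629 and 0.990).

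The promoters of the genes are shown because the members share regulators: EBF1 and PAX5 bind control regions of many B cell genes, and both are themselves members. The RefSeq promoter table (GRCm38.p6) held 6 of the 9 genes, in 9 promoters. It held none for Ms4a1, Cd79b and Blk. The 250 bases before the start of Pax5 and Cd22, the genes without overlap between genotypes, and of Cd79a, a receptor chain that overlapped, read 5′ to 3′ as follows, with matches to 5 motifs, on either strand, in capitals; that of Pax5 holds none. The starts are those of RefSeq and need not be the ends of the GENCODE genes: the Cd22 window lies inside the gene span given above, and the Cd79a window runs past the GENCODE start at position 24897381. The positions are chr4:44710695-44710944 (minus strand) for Pax5, chr7:30879029-30879278 (minus strand) for Cd22 and chr7:24897247-24897496 (plus strand) for Cd79a.
Pax5: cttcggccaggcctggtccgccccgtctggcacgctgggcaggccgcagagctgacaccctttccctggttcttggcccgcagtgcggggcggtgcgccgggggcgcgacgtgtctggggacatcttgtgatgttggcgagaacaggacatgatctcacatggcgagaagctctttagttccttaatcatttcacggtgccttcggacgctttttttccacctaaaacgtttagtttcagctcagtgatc
Cd22: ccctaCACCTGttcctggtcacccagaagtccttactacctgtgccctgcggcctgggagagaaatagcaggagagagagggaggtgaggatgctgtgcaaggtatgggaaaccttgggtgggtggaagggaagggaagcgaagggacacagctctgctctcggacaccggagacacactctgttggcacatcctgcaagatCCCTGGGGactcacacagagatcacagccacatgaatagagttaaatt
Cd79a: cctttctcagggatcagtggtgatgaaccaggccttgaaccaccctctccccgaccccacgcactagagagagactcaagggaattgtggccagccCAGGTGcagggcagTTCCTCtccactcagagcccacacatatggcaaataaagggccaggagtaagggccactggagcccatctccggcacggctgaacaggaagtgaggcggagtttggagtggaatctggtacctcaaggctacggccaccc
The motifs were searched on both strands. The EBF core CCCNNGGG was found in the Cd22 promoter, 48 bases before the start, and in 11.8% of the 32851 promoters of the table. The E box CAGGTG was found in 4 of the 9 member promoters, those of Cd22, Cd79a and Cr2 and a promoter of Fcer2a, against 17.2% of all promoters. The core GAGGAA of the factors SPI1 and SPIB was found in 2 of the 9, that of Cd79a and a promoter of Ebf1, against 23.3% of all promoters. Fcer2a and Ebf1 also have promoters without these matches. The sequence GCGTGAC, a part of the PAX5 site, was found in none of the 9 member promoters and in 1.78% of all promoters. The octamer ATTTGCAT was also found in none of the 9 (1.6% of all promoters). No matches overlapped in the promoters shown. Only the letters given were searched, so a promoter without a match may still hold an EBF1 or PAX5 site with other letters. A match describes letters in this window and was not tied to the fold changes.

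Compared with one another per length, the 9 genes fell into tiers in WT thymus. Given as CPM per kilobase of the principal transcript (mean ± SD, n = 4), the receptor chains led, with 17.6 ± 2.44 for Cd79b and 10.5 ± 1.97 for Cd79a. Ms4a1 (4.21 ± 0.963), Fcer2a (4.20 ± 0.571), Blk (3.51 ± 0.406) and Cd22 (3.39 ± 0.139) came next, and the libraries of neighbours in this order overlapped. Cr2 (1.42 ± 0.225), Pax5 (1.15 ± 0.165) and Ebf1 (1.06 ± 0.0636) were lowest, again without a gap between neighbours. In Tol thymus the order was the same at the top, with 19.8 ± 2.43 for Cd79b and 9.64 ± 0.817 for Cd79a. At the bottom Pax5, at 0.771 ± 0.168, lay under Ebf1, at 0.852 ± 0.212, within their spread. The transcription factors had between 74 and 319 counts per thymus library, and the receptor chains between 224 and 726.

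The libraries themselves differed across the 9 genes. WT 4 was the highest of the 8 thymi for 6 genes, and Tol 2 was the lowest for 6, with Tol 4 the lowest for another 2. The summed level of the 9 genes was 92.3, 87.5, 97.4 and 90.5 CPM in Tol thymi 1 to 4 and 97.9, 93.6, 95.8 and 120.3 CPM in WT thymi 1 to 4. The WT thymi other than WT 4 lay inside the Tol range or just above it. Set against the T lineage markers, the sum was 5.42 to 6.23 CPM per 1000 CPM in Tol and 5.35 to 6.33 in WT, so the ranges overlapped. The T lineage sum is carried by a few genes, of which Rag1 had a mean of 3905 CPM in Tol and 5297 CPM in WT and Tcf7 of 3032 and 3619 CPM, both without overlap, so the denominator was itself smaller in most Tol thymi. Without WT 4 the number of members called stayed 0, Pax5 had a log2 fold change of -0.46 and Cd22 of -0.34 (edgeR adjusted p = 0.212 and 0.208), and Cd79a moved from -0.13 to 0.01.

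Markers of lymph node and follicular stroma went different ways in WT 4. Among the thymi, Cxcl13, Glycam1 and Mfge8 were highest there, Ccl21a and Madcam1 were lowest there, and Ccl19 and Lyve1 lay in between. Cxcl13, the chemokine that draws B cells into follicles, had 1.08, 0.99, 1.16 and 1.89 CPM in Tol thymi 1 to 4 and 2.18, 1.76, 3.84 and 11.0 CPM in WT thymi 1 to 4. Glycam1 had 1.88 CPM in WT 4 and 0.09 to 0.39 CPM in the other 7 thymi. The list holds 7 genes, 6 of which had over 3 counts in every thymus. Its sum was not raised in WT 4, at 279 CPM against 273 to 358 CPM in the other thymi. Ccl21a, which the thymic medulla also makes, supplies most of the sum and had 175 CPM in WT 4. Madcam1, an adhesion molecule of lymphoid vessels, was lowest in WT 4, at 0.417 CPM. Of the 6 genes tested 3 were lower in Tol, 2 of them at an unadjusted p under 0.05, and the median log2 fold change was 0.07. Lyve1, a marker of lymphatic vessels, had 0.350 to 1.64 CPM in the Tol thymi and 1.61 to 3.92 CPM in the WT thymi, so the groups met at their edges (-1.70, edgeR adjusted p = 0.0830). Ccl21a had the lowest p of those above 0 (0.21, edgeR adjusted p = 0.285). The part of lymph node tissue in the B cell gene levels of WT 4 was not tested.

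Across the 8 thymi, 31 of the 36 pairs of members had a positive correlation of log2(CPM + 1), with a median r of 0.46 (-0.64 to 0.92). After centring on the genotype means 30 pairs were positive (median r 0.42). Without WT 4, over 7 libraries, 25 were (median r 0.21, from -0.92 to 0.93). Pairs of other genes were not counted, so whether these counts are particular to the members was not tested. The gene most like the members' mean standardized level was Fcmr, the Fc receptor for IgM that B cells carry, with r = 0.99 over 8 libraries and 0.88 over the 6 left without WT 4 and Tol 2. Fcmr had 4.26, 3.36, 4.40 and 4.08 CPM in Tol thymi 1 to 4 and 4.52, 4.55, 4.45 and 6.54 CPM in WT thymi 1 to 4. For Fcmr the Tol thymi lay below the WT thymi by a narrow margin (log2 fold change -0.32, edgeR adjusted p = 0.247). The next 4 genes were Gulp1, Tmem204, Tmem87a and Tll1, with r from 0.94 to 0.96. Without WT 4 and Tol 2 their r dropped to between 0.37 and 0.59, so their likeness rests on these libraries. All points share library and depth, and these r are descriptions.

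Fold change and transcript length moved together. From the shortest principal transcript to the longest the log2 fold changes were 0.15 for Cd79b (1195 bases), -0.13 for Cd79a (1457 bases), -0.10 for Fcer2a (2242 bases), 0.01 for Blk (2326 bases), -0.34 for Ms4a1 (3075 bases), -0.34 for Cd22 (3974 bases), -0.27 for Cr2 (4227 bases), -0.31 for Ebf1 (5981 bases) and -0.57 for Pax5 (8004 bases). The rank correlation of fold change with length was -0.78 over the 9 genes and -0.40 over the 16199 tested genes that have a length. The median log2 fold change of all genes ran from 0.17 in transcripts under 1500 bases to -0.14 in those over 6000 bases.

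**Figure D2:**
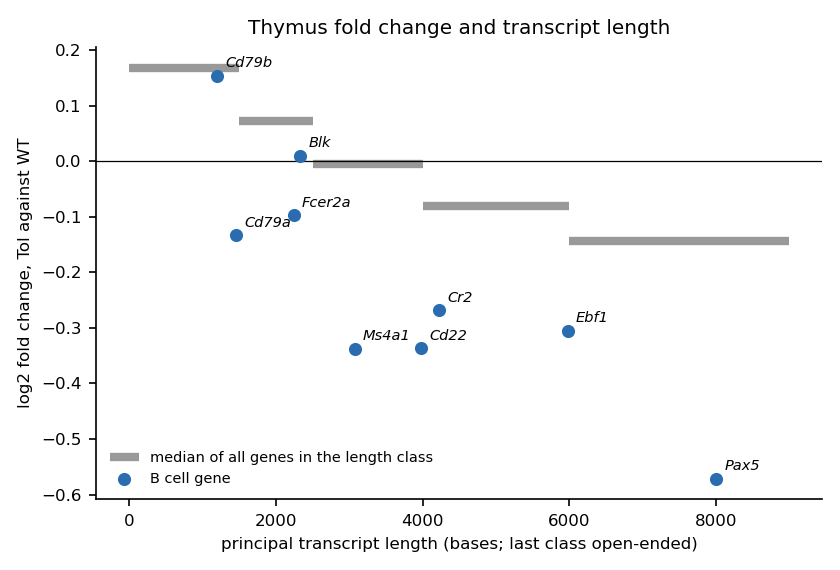
Log2 fold change of Tol against WT thymus (y axis) by principal transcript length in bases (x axis) for the 9 B cell genes (blue points), with the median of all tested genes in 5 length classes (grey bars, the last of an open-ended class). The class medians run from 0.17 to -0.14, and all 9 genes lie below the bar of their class.

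With each library's trend with length and GC content removed, the log2 fold change of Pax5 was -0.43 (edgeR adjusted p = 0.130) and that of Cd22 -0.28 (edgeR adjusted p = 0.134). Ms4a1 stood at -0.36 and Cd79a at -0.22, while Cd79b stood at 0.05 and Blk at -0.03 (edgeR adjusted p = 0.216, 0.366, 0.848 and 0.937 in this order). The median over the 9 genes was -0.22, against 0.01 over all genes, and the rank correlations with length were -0.67 and -0.08. The order of the members by fold change thus kept most of its relation to length, and 0 members passed the threshold with or without the trend. What sets the length trend was not tested.

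**Figure D3:**
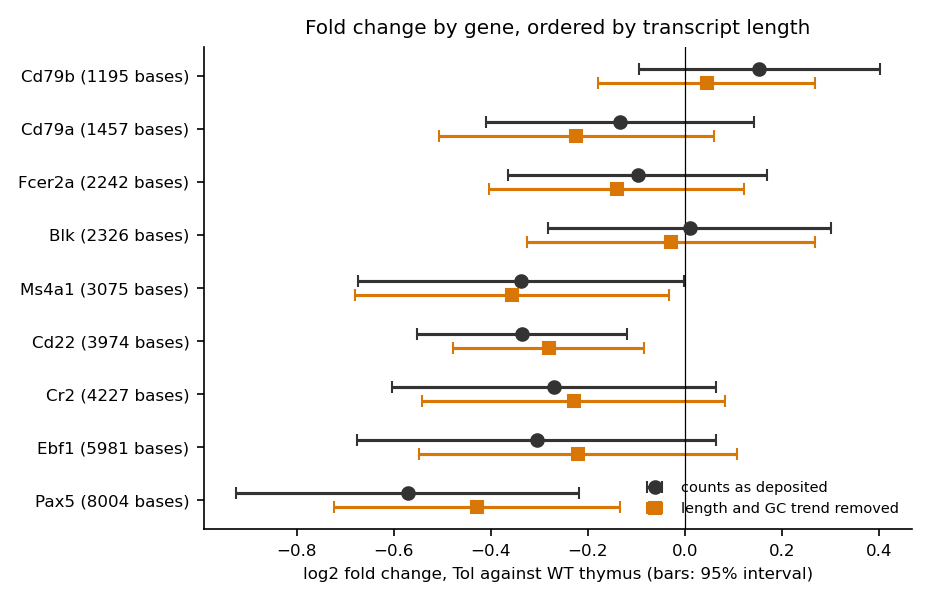
Log2 fold change of Tol against WT thymus (x axis) with 95% intervals for the 9 genes, ordered from the shortest to the longest transcript, from the counts as deposited (dark circles) and with the length and GC trend removed (orange squares). Pax5 is the lowest in both fits, at -0.57 and -0.43, and the intervals of Pax5, Cd22 and Ms4a1 lie below 0 in both, that of Ms4a1 barely so from the counts as deposited.

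Further lists of B lineage genes gave no call in thymus, and their shares at an unadjusted p under 0.05 can be read against the 11.1% and 13.3% given above. Fold changes of these lists and of the cell type markers are given with the length trend left in, and its part in them was not tested. Some listed genes lie far above the 9 genes in level. Ikzf1 had a mean of 790 CPM in WT thymi, against 9.22 CPM for Pax5. The part of B cells in such levels was not tested. Of 14 other B cell transcription factors, 10 were lower in Tol and 4 at an unadjusted p under 0.05, with a median log2 fold change of -0.14. Irf4, which drives late B cell and plasma cell steps, had 18.7 to 22.3 CPM in the Tol thymi and 25.3 to 26.8 CPM in the WT thymi, without overlap (log2 fold change -0.30, edgeR adjusted p = 0.0837). Id3, an inhibitor of E proteins, had the lowest p of those that were higher, with 0.12 (edgeR adjusted p = 0.559).

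Of 13 receptor and co-receptor genes, 10 were tested, 6 were lower, and 0 reached an unadjusted p under 0.05 (median log2 fold change -0.11). Ighm, the heavy chain constant region of IgM, had 626 to 791 CPM in the Tol thymi and 700 to 1126 CPM in the WT thymi. Its libraries overlapped between the genotypes. Ighd, of IgD, had the lowest p of those that were lower (-0.42, edgeR adjusted p = 0.206), and Cd37 of those that were higher (0.11, edgeR adjusted p = 0.329). The surrogate light chain genes of B cell progenitors were scarcely detected, with 0 to 10 counts of Vpreb1, 0 to 2 of Vpreb2 and 0 to 5 of Igll1 per thymus.

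Of 13 genes that signal beneath the receptor, 12 were lower in Tol and 6 at an unadjusted p under 0.05, with a median log2 fold change of -0.20. Inpp5d, the inhibitory phosphatase SHIP1, had 114 to 139 CPM in the Tol thymi and 150 to 159 CPM in the WT thymi, without overlap (-0.31, edgeR adjusted p = 0.0748). Btk was the member above 0, at 0.01 (edgeR adjusted p = 0.986). Many genes of this list, Inpp5d among them, are also expressed in T or myeloid cells. The list summed to between 856 and 968 CPM in Tol and between 994 and 1060 CPM in WT thymi. Of 13 survival and homing receptor genes, 12 were tested, 4 were higher and 4 lower at an unadjusted p under 0.05 (median -0.19). Il7r, the interleukin 7 receptor of lymphoid progenitors, had 56.3 to 61.1 and 67.1 to 82.3 CPM (-0.35, edgeR adjusted p = 0.0710). Ly6d, a surface protein of early lymphoid cells, had 240 to 276 and 188 to 232 CPM (0.33, edgeR adjusted p = 0.0814). Neither gene overlapped between genotypes, Il7r being lower and Ly6d higher in Tol. Of all genes tested, 5.81% did not overlap and were higher in Tol, beside the 5.95% that were lower.

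Markers of the other cells of the thymus gave no call either. The 14 T lineage markers summed to between 14524 and 17803 CPM in Tol and between 17503 and 18988 CPM in WT, with 8 fold changes above and 6 below 0 (median 0.04). Cd3d, a chain of the T cell receptor complex, had the lowest p above 0 (0.33, edgeR adjusted p = 0.0991) and Rag1, of the recombinase of developing lymphocytes, below 0 (-0.44, edgeR adjusted p = 0.0927). The 10 thymic epithelium markers summed to between 1228 and 1407 CPM in Tol and between 1168 and 1212 CPM in WT, without overlap. Of these 10, 9 had fold changes above 0, 4 at an unadjusted p under 0.05 (median 0.16), led by Epcam (0.25, edgeR adjusted p = 0.0982), and Aire lay below 0 (-0.06, edgeR adjusted p = 0.768). Of 10 macrophage and dendritic cell markers 8 were lower, 3 at an unadjusted p under 0.05 (median -0.17), with Xcr1 of cross-presenting dendritic cells at -0.31 and C1qa of macrophages at 0.18 (edgeR adjusted p = 0.155 and 0.409). Of 6 plasma cell genes tested 4 were lower, 1 of them (Irf4) at an unadjusted p under 0.05, and Mzb1 stood at 0.11 (edgeR adjusted p = 0.776). Sums of the erythroid markers (182 to 262 and 118 to 281 CPM), of the fat markers (24.7 to 104.5 and 42.3 to 122.1 CPM) and of the vessel markers (101 to 107 and 95.1 to 117.8 CPM) overlapped between Tol and WT. The genes of lowest p in these lists were Hba-a1 (0.29) and Alas2 (-0.08), Fabp4 (0.12) and Cidec (-0.80), and Kcnj8 (0.14) and Abcc9 (-0.43), with edgeR adjusted p from 0.122 to 0.889. The part of these cell types in the B cell gene levels was not tested.

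A second question was where else the genes are expressed. WT thymus was compared with WT cerebrum and with WT cerebellum, and the same 4 WT thymi enter both comparisons. Against cerebrum, 8 of the 9 genes were called higher in thymus by edgeR, all but Ebf1. Over all genes tested 86.5% were called and 45.1% were called higher in thymus. Against cerebellum all 9 were called, 8 higher in thymus and Ebf1 lower, beside 83.9% called and 42.8% called higher in thymus over all genes tested.

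Blk was at the detection limit in brain, with 0, 0, 1 and 0 counts in WT cerebra 1 to 4 and 2, 0, 0 and 2 counts in WT cerebella 1 to 4. Fewer than 3 counts in a library were taken as not detectable, which corresponds to 0.0876 to 0.207 CPM depending on the library. The receptor chain Cd79b had 2 to 5 counts in the WT cerebra and 0 to 4 in the WT cerebella, so no fold is given for either gene. Cd79a had 3 to 5 counts (0.17 to 0.26 CPM) in WT cerebra and 8 to 14 counts (0.32 to 0.52 CPM) in WT cerebella. The log2 difference of WT thymus was 5.68 against cerebrum (95% interval 5.17 to 6.18, edgeR adjusted p = 3.06e-09). Against cerebellum it was 4.88 (95% interval 4.39 to 5.36, edgeR adjusted p = 1.37e-08). The fold against cerebrum rests on counts at or just above that limit. Ms4a1 (0.21 to 0.61 and 0.38 to 0.70 CPM) and Cd22 (0.42 to 0.73 and 0.46 to 0.76 CPM) were also under 1 CPM in every WT brain library. The mature B cell receptors stood higher: Cr2 had 0.52 to 1.41 CPM in WT cerebra and 0.49 to 1.01 CPM in WT cerebella, and Fcer2a had 0.73 to 1.25 and 1.43 to 1.99 CPM. Their log2 differences were the smallest among the genes called higher in thymus, at 2.29 and 2.80 against cerebrum and 2.76 and 2.13 against cerebellum.

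**Figure D4:**
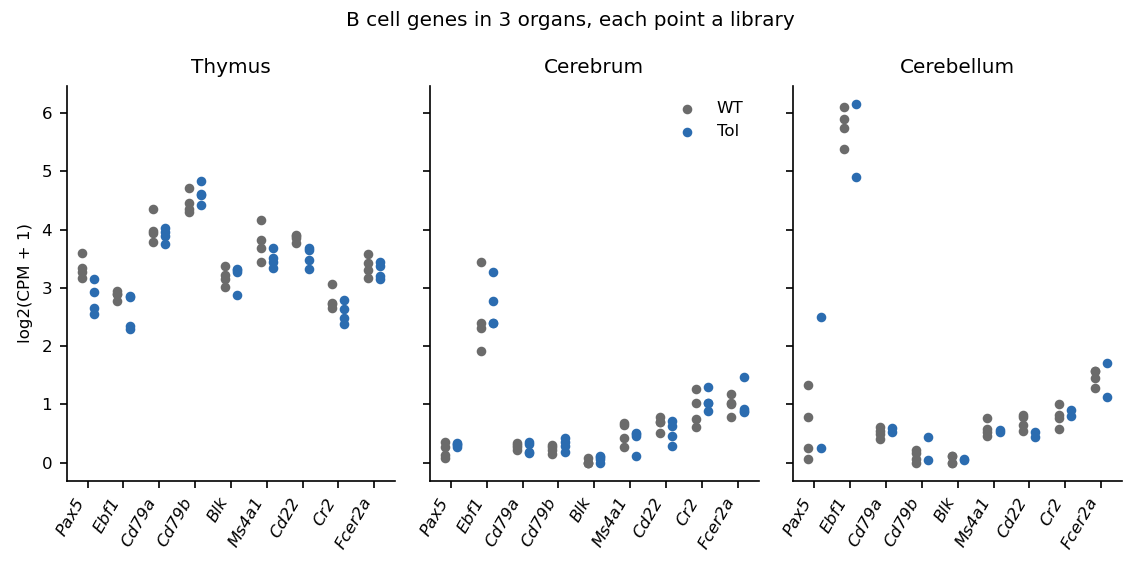
Level of the 9 genes as log2(CPM + 1) (y axis) in thymus, cerebrum and cerebellum, each point a library, WT in grey and Tol in blue. CPM are scaled within each organ, so the panels are not on one common scale. Ebf1 is the gene whose brain levels reach or pass those in thymus, and Pax5 in cerebellum is spread widely, with Tol 2 at the top.

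Ebf1 was the exception. It had 5.80 to 6.68 CPM in WT thymi, 2.77 to 9.82 CPM in WT cerebra and 40.7 to 67.4 CPM in WT cerebella. The log2 difference of WT thymus against WT cerebrum was -0.13 (95% interval -0.88 to 0.63, edgeR adjusted p = 0.729) and against WT cerebellum -3.37 (SE 0.15, edgeR adjusted p = 1.61e-08). EBF1 also acts outside the B lineage, in neurons and in stromal cells, so that in brain RNA Ebf1 is no B cell marker. The part of stromal cells in the thymus level of Ebf1 was not tested. In cerebrum, its highest libraries were WT 3 (9.82 CPM) and Tol 4 (8.61 CPM), which were also those with the high striatum markers, and the other 6 lay between 2.77 and 5.86 CPM. Without WT 3 the difference between WT thymus and WT cerebrum was 0.39 (edgeR adjusted p = 0.0563), so its sign turned without that library. The fit scaled both organs together, while the CPM given are scaled within each organ. By those CPM the mean was 6.35 in WT thymi and 5.21 in WT cerebra with WT 3 included, the other way from the fit. In cerebellum, Ebf1 had 70.2 and 28.7 CPM in Tol 1 and Tol 2 and 58.2, 40.7, 67.4 and 52.4 CPM in WT 1 to 4. The order of the 6 libraries was that of their cerebellum marker sums, but for WT 1 and WT 4, which changed places. The part of the dissected region in these levels was not tested.

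Within cerebrum, 4 of the 9 genes passed the expression filter (Ebf1, Cr2, Fcer2a and Cd22), and edgeR called 0 of them between Tol and WT, with 0 at an unadjusted p under 0.05. DESeq2 called 0 and gave no adjusted p for Cd22. Over all genes tested in cerebrum edgeR called 0% (0 of 15596). The log2 fold changes were 0.13, 0.26, 0.12 and -0.44 in this order, with edgeR adjusted p from 0.749 to 0.943. The intervals were wide, from -0.76 to 1.01 for Ebf1 and from -1.25 to 0.38 for Cd22. Pax5, which did not pass the filter there, had 3 to 6 counts in Tol and 1 to 5 counts in WT cerebra. A difference at such counts was not detectable at this depth.

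Within cerebellum, 7 of the 9 passed the filter, all but Cd79b and Blk, and edgeR called 0 of them between Tol and WT, with 0 at an unadjusted p under 0.05. DESeq2 called 0 and gave an adjusted p for Ebf1 alone. Over all genes 0% (0 of 16662) were called, and with 2 Tol libraries the intervals were wide. Pax5 had 5 and 116 counts in Tol 1 and Tol 2 and 38, 17, 5 and 1 counts in WT 1 to 4, that is 0.20 and 4.63 CPM against 1.52, 0.71, 0.19 and 0.04 CPM. Tol 2 was thus above every other brain library. The log2 fold change was 1.97 (95% interval -1.38 to 5.31) with Tol 2 and -1.61 without it (edgeR adjusted p = 0.957 and 0.979). Pax5 is known from midbrain and hindbrain development as well as from B cells. Cd79b also had its highest count in Tol 2, 9 against 0 to 4 in the other 5 cerebella, while Cd79a had 13 against 8 to 14 and Ms4a1 11 against 9 to 17. Cd22 had 0.36 and 0.44 CPM in the Tol and 0.46 to 0.76 CPM in the WT cerebella. It was the member of the 9 whose groups did not overlap there, lower in Tol, as were 4.59% of all genes tested in cerebellum (log2 fold change -0.64, edgeR adjusted p = 0.957).

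**Figure D5:**
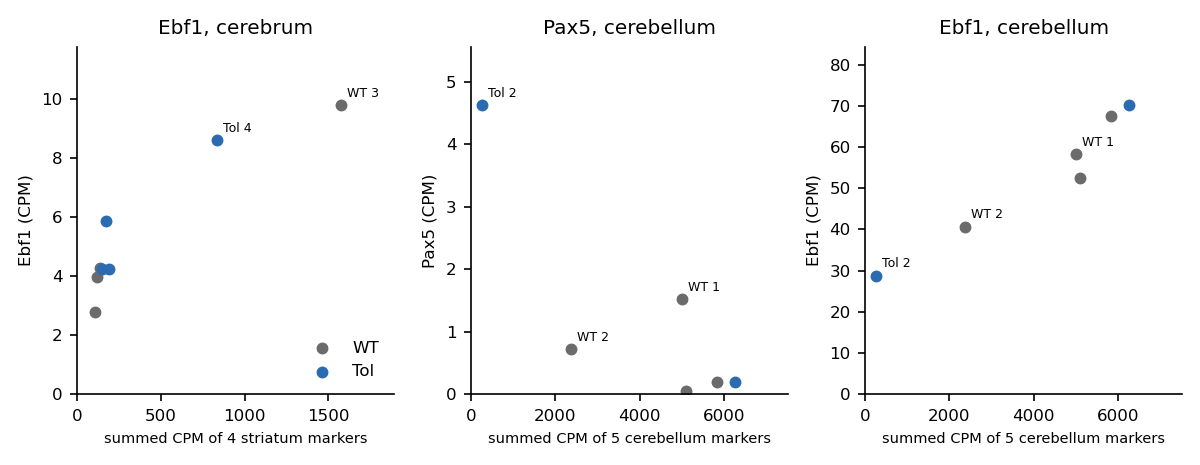
Ebf1 in cerebrum by the summed CPM of 4 striatum markers (left), and Pax5 (middle) and Ebf1 (right) in cerebellum by the summed CPM of 5 cerebellum markers. All values are in CPM, each point is a library (WT grey, Tol blue), and some of the libraries are labelled. Cerebrum WT 3 and Tol 4 are high on both axes of the left panel, and cerebellum Tol 2 has the fewest cerebellum markers, the most Pax5 and the least Ebf1.

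Finally, whether the effect of Tol differs between cerebrum and thymus was tested by the interaction of genotype and organ over 16 libraries. The test treated these libraries as independent, since the labels do not say whether a thymus and a cerebrum came from the same mouse. Of the 9 genes, 0 were called, beside 0.107% of 17774 genes. DESeq2 called 0, and gave no adjusted p for Pax5, Blk and Cr2. At an unadjusted p under 0.05 edgeR gave 1 gene, Pax5, with a difference of 1.18 in log2 fold change (95% interval 0.17 to 2.19, unadjusted p = 0.0249, edgeR adjusted p = 0.229). It rests on 1 to 6 counts per cerebrum library. For Cd22 the difference was -0.11 (95% interval -0.78 to 0.55, edgeR adjusted p = 0.917), and the effects in the separate organs were -0.34 in thymus and -0.44 in cerebrum.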

How the data were processed

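RNA from frozen tissue was sequenced by the authors from stranded poly(A) libraries (single-end, 65 bp). Salmon 0.14.1 then quantified transcripts against GRCm38 cDNA, to which the Tol transcript had been added. The deposited values are estimated counts (expected counts) per gene, whole numbers without normalization, in 3 tables with 22 libraries. Library groups came from the submitters' labels, and 0 per-sample columns were left unused.

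Counts were analysed in R 4.3.3 with edgeR 4.0.16: filterByExpr, TMM factors and quasi-likelihood tests. P-values were adjusted by Benjamini-Hochberg over all genes of a fit and called under 0.05, and the Tol transcript was not counted. Comparisons set Tol against WT in each organ, WT thymus against each WT brain region, and genotype by organ over thymus and cerebrum. Alternatives were DESeq2 1.42.0 and its size factors, no filter, a minimum of 10 counts per library, robust moderation, removal of each library's length and GC trend (splines with 5 degrees of freedom), thinning to the smallest total, a replicate block, all 22 libraries in one fit, and leaving out each library. Symbols, positions and lengths of the APPRIS principal transcripts are from GENCODE for GRCm38, which held 34465 of the 34585 identifiers, and the promoters from RefSeq. The test was also run on simulated counts with known changes. These were drawn gene by gene without a length trend, so that run does not bear on how the trend or a single library affects the calls.

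The genes and lists were chosen with earlier results of these data known. Named are all 9 genes, the gene of lowest p in each direction of the lists described, the 5 genes most like the members, and genes with a value that touches a result, which were chosen after their values were seen. Libraries of a group differed beyond counting error (chi-square over its degrees of freedom 4.98 to 208 in 31 pairs), so each counts as 1 replicate. Per the study, the expression data shown for its organs came from 4 mice of each genotype. For cerebellum 2 Tol libraries are analysed here. The labels do not say which mouse gave which library, and the p-values measure the spread between libraries. The floor of 3 counts covers counting error only.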

Additional observations from a re-analysis of the deposited data

Results flagged for a closer look

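Of 50 groups of 4 libraries, 6 held a library whose gap to the nearest other was most of the group's range by Dixon's criterion, which chance meets in about 1 group in 20 (2.5 of 50). In thymus, the summed level of the 9 B cell genes was 120.3 CPM in WT 4, with the next WT library at 97.9 CPM, and Blk was 6.38 CPM in Tol 2, with the next Tol library at 8.65 CPM. In cerebrum, the summed level was 13.2 CPM in WT 3 against 7.56 CPM in the next WT library, and 9.82 CPM of it was Ebf1. Fcer2a was 1.77 CPM in Tol 1 against 0.88 CPM in the next Tol cerebrum, and Ms4a1 was 0.0842 CPM, or 2 counts, in Tol 1 against 0.37 CPM. Blk was 0.0522 CPM in WT 3, which is 1 count where the other WT cerebra have 0. The cause of these gaps was not tested.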

How the results depend on the processing

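In thymus, edgeR called 0 of the 9 genes under every alternative fit, and DESeq2 called 2 (Pax5 and Cd22). Leaving out each library gave 0 to 2 called, the 2 without Tol 1; the cause was not tested. The number of genes called overall was far less stable: 16 as reported, 1266 with DESeq2, 130 without a filter, 85 with at least 10 counts in every library, 38 with robust moderation, 18 with the length and GC trend removed, 26 after thinning, 29 with all 22 libraries in one fit, and 0 to 2978 with a library left out. Pax5 and Cd22 kept their direction under all 18 alternatives each, with log2 fold changes of -0.71 to -0.43 and -0.39 to -0.26. The edgeR adjusted p of Pax5 ranged from 0.0126 to 0.792, the latter with all 22 libraries in one fit. Blk turned to -0.028 with the trend removed, and lay between -0.040 and 0.11 with a library left out, and Cd79a between -0.21 and 0.012. In cerebrum and cerebellum, 0 members were called under every alternative, with 184 and 10 genes called overall by DESeq2 and 25 in cerebrum with all 22 libraries in one fit. In thymus, the median of the 9 genes ranged from -0.32 to -0.14 with a library left out, the latter without WT 4. With a library left out, Ebf1 ranged from -0.12 to 0.63 and Fcer2a from -0.23 to 0.24 in cerebrum. In cerebellum Pax5 ranged from -1.61 to 2.91, Ebf1 from -0.93 to 0.36, Fcer2a from -0.58 to 0.33, Cr2 from -0.015 to 0.30 and Ms4a1 from -0.27 to 0.070, and thinning turned Cr2 to -0.011. For the difference between cerebrum and thymus, 0 members were called throughout, with 495 genes overall by DESeq2, 48 with at least 10 counts in every library and 2 to 1116 with a library left out. Cd79a turned to -0.92 after thinning and lay between -0.17 and 0.21 with a library left out, Ms4a1 between -0.36 and 0.22, Cd79b between -0.0024 and 0.43, Fcer2a between -0.14 and 0.35 and Cd22 between -0.38 and 0.15. With at least 10 counts in every library, 2 members were called between WT thymus and cerebrum and 4 against cerebellum, since that filter removed the others. With a library left out the counts stayed at 8 and 9, and Ebf1 against cerebrum lay between -0.33 and 0.39.

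Same-numbered Tol and WT libraries did not deviate together throughout (correlations of -0.18 to 0.07 in thymus, -0.41 to 0.49 in cerebrum, and -0.21 and 0.68 in cerebellum), so the numbers were not taken as pairs. With the replicate number as a block, 0 members and 5 genes were called in thymus (10 genes with the trend also removed, where Blk was -0.032), and 4 and 11 genes in the difference between organs. In cerebellum the block turned Ms4a1 to 0.16 and Cr2 to -0.11 (0.19 and -0.079 with the trend removed) and moved Pax5 to 0.17, and it turned Ebf1 between WT thymus and cerebrum to 0.017. The block changed no other direction or call of a member.

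In brain, depth is a limit for Blk and Cd79b, which had at most 9 counts in any brain library. In cerebrum it is a limit for Cd79a and Pax5 as well, which had at most 6 counts there. In thymus the 9 genes had between 74 and 726 counts per library, and the spread between libraries adds to counting error.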
